A study of Mus musculus with 88 samples.

Results

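Ubiquitin-specific proteases (USPs) form the largest class of deubiquitinases, the enzymes that cut ubiquitin off other proteins. Their genes were described here in whole blood of lupus-prone mice, from the array's probe annotation. Members were all genes whose symbol began with Usp and a digit, other than the interferon-induced Usp18. Each gene was represented by 1 probe set assigned to it alone, the one with the highest mean over all 88 arrays. This gave 46 USP genes of 17097 genes on the array. A further 2 symbols, Usp47 and Usp49, were assigned only together with another gene and are not analysed here.

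The mice were female SNF1 hybrids of the SWR and NZB strains, which develop lupus nephritis with age. Pristane, a hydrocarbon oil, was injected into the peritoneum of 9-week-old mice, and blood was taken from 8 pristane-treated and 8 age-matched untreated mice at each of weeks 2, 4, 8, 12 and 14. A group of 8 mice with spontaneous disease was 36 weeks old and had been selected for proteinuria. Week 36 is an age while the other weeks count from the injection, and the labels hold no disease-free group of that age, so age and disease cannot be told apart. All 11 groups shared the same hybrid background, and within a group each array was taken as 1 mouse. The labels do not say whether the same mice were bled at several weeks. Comparisons across weeks treat the arrays as independent.

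Ubiquitin is a small protein that cells attach to other proteins, singly or in chains, to mark them for the proteasome, to sort them between membranes or to switch signalling and DNA repair on. USPs reverse these marks, and most of them act on few substrates through domains outside a shared catalytic fold. In blood cells they are known for trimming the ubiquitin chains of NF-kB and interferon signalling, for removing ubiquitin from histones and for guarding DNA replication. Not every gene with the symbol encodes an active protease. Usp39, Usp53 and Usp54 have been annotated as lacking key residues of the active site, and Usp46os2 is an antisense transcript.

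Promoter sequences were taken from RefSeq (build GRCm38.p6) as the 250 bases before each gene's start, and 36 of the 46 members had one. The 5 shown include that of Usp32, which was higher in pristane-treated mice at every week. Usp4 and Usp37 are 2 of the 3 members whose pristane effect was called lower at week 14 than at week 2, and Usp45 is the other. Usp15 and Usp25 are the pair with the steepest slopes on red cell markers. Capitals mark the GC box, GGGCGG or its complement CCGCCC.
Usp32, chr11:85139956-85140205, minus strand: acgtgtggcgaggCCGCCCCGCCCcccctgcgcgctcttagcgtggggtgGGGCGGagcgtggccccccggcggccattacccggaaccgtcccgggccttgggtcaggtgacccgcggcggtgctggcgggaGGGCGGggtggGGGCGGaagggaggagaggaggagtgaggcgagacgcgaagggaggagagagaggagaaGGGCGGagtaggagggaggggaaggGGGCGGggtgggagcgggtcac
Usp4, chr9:108347581-108347830, plus strand: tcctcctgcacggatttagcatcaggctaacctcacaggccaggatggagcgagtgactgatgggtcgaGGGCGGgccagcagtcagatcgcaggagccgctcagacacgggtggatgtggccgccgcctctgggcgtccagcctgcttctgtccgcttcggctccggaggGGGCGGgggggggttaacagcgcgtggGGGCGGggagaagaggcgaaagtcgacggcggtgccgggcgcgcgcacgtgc
Usp37, chr1:74505822-74506071, minus strand: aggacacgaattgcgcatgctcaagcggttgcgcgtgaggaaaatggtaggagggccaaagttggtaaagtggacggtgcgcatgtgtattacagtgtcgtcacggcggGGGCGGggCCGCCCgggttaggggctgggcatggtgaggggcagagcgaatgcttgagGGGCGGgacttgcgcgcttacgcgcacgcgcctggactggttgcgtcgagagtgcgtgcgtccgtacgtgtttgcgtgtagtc
Usp15, chr10:123197020-123197269, minus strand: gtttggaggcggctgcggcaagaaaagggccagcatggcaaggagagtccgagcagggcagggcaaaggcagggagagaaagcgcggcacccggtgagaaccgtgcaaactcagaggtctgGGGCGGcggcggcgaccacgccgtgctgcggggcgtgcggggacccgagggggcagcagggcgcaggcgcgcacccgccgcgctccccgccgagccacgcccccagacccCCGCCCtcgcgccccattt
Usp25, chr16:77013819-77014068, plus strand: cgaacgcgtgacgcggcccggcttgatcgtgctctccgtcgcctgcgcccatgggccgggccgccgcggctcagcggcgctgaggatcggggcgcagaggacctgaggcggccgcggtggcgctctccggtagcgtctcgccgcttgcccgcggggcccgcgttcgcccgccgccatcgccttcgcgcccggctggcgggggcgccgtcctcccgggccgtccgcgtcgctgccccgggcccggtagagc

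The Usp32 promoter held 7 GC boxes, 2 of which share bases, the Usp4 and Usp37 promoters 3 each, the Usp15 promoter 2 and the Usp25 promoter 0. Their G and C content lay between 62.8% for Usp37 and 80% for Usp25. Of the 36 members with a promoter, 22 (61.1%) held a GC box on either strand, against 32.7% of all 32851 promoters. The shares of all promoters, here and below, cover every promoter entry, whether or not its gene was measured on the array. The members and this background are therefore unlike sets. The interferon-stimulated response element, GAAA followed by any 2 bases and another GAAA, was found in 0 of the 36, against 2.98% of all promoters, and the GATA motif AGATAA in 0, against 9.99%. The STAT motif TTCNNNGAA was found in 5 (7.02% of all), the ETS motif CCGGAAGT in 2 (2.88% of all), the E2F motif TTTCCCGC in 1 (0.895% of all) and the other E2F motif TTTGGCGC in 0 (0.417% of all). The NRF1 motif, GCGCA followed by TGCGC, was found in 0 (0.782% of all). These are matches of letters on both strands of a short window and describe that window only.

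The deposited values were log2 signals per probe set, so a difference of 1 stands for 2-fold. They ran from 0.736 to 13.8, with array medians from 3.78 to 4.01. The arrays did not share 1 distribution. Their interquartile ranges lay between 2.75 and 3.79, and the first principal component, with 23.2% of the variance, correlated with that range at 0.976 across the 88 arrays. All comparisons were contrasts of 1 limma model of the 11 group means. Benjamini-Hochberg adjustment ran over 45037 probe sets within a comparison, and the calls below rest on an adjusted p under 0.05. Intervals are 95% confidence intervals, and n was 8 mice per group throughout. The p-values set a difference, or a slope, against the spread between mice within groups, estimated over all 11 groups. The number of arrays limits the precision. In whole blood, fewer cells of a type and less RNA per cell cannot be told apart.

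The family held both bright and dim members in blood. Of the 46 members, 36 had a mean above the median of all values, 3.89, and 10 a mean below it. The brightest was Usp7, a deubiquitinase of p53 and of its ligase Mdm2, with a mean of 10.17 over the 88 arrays. Usp32 followed with 9.34, then Usp15 with 9.16, Usp25 with 8.24 and Usp1 with 7.74. The dimmest were Usp17la with 2.35, the Y-linked Usp9y with 2.46, Usp27x with 2.48, Usp53 with 2.91 and Usp50 with 3.09. The mice were female, so the Usp9y value gives the signal of a probe set whose gene they lack. Probe sets bind their targets unequally, so this order ranks signals and not transcript amounts.

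Over the first 12 weeks few USP genes were called between pristane-treated and untreated mice, and at week 14, 11 of the 46 were called. At week 2, 2 members were called higher (2.29% of all genes) and 0 lower (1.29% of all genes). At week 4 the counts were 1 higher (2.18% of all genes) and 0 lower (0.801%), and at week 8 again 1 higher (1.85%) and 0 lower (0.778%). At week 12, 1 was higher (2.7%) and 1 lower (1.06%). At week 14, 5 were higher, against 12.7% of all genes, and 6 were lower, against 9.72% of all genes. These counts are close to the shares of all genes. Only 1 of the 11, Usp4, passed 2-fold, when 1.87% of all genes were called more than 2-fold higher and 1.93% more than 2-fold lower. With untreated mice of week 12 as the control for week 14, 2 members were higher and 5 lower, of which 2 and 1 were among the 11. Directly between the pristane effects of weeks 14 and 12, 0 members were called (0.877% of all genes higher and 1.28% lower).

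The members' median log2 change was 0.06, -0.06, -0.01 and -0.14 at weeks 2, 4, 8 and 12, where that of all genes lay between -0.02 and 0.01. At week 14 it was -0.20, with 29 members below 0 and 17 above, while the median of all genes was 0.12. With quantile normalization the members' median was -0.13, against 0.09 for all genes. With the interquartile range of the arrays as a covariate it was -0.03, against 0.04 for all genes. With the score of red cell markers as a covariate it was 0.02, against 0.04 for all genes, so the gap was smaller with either covariate.

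**Figure D1:**
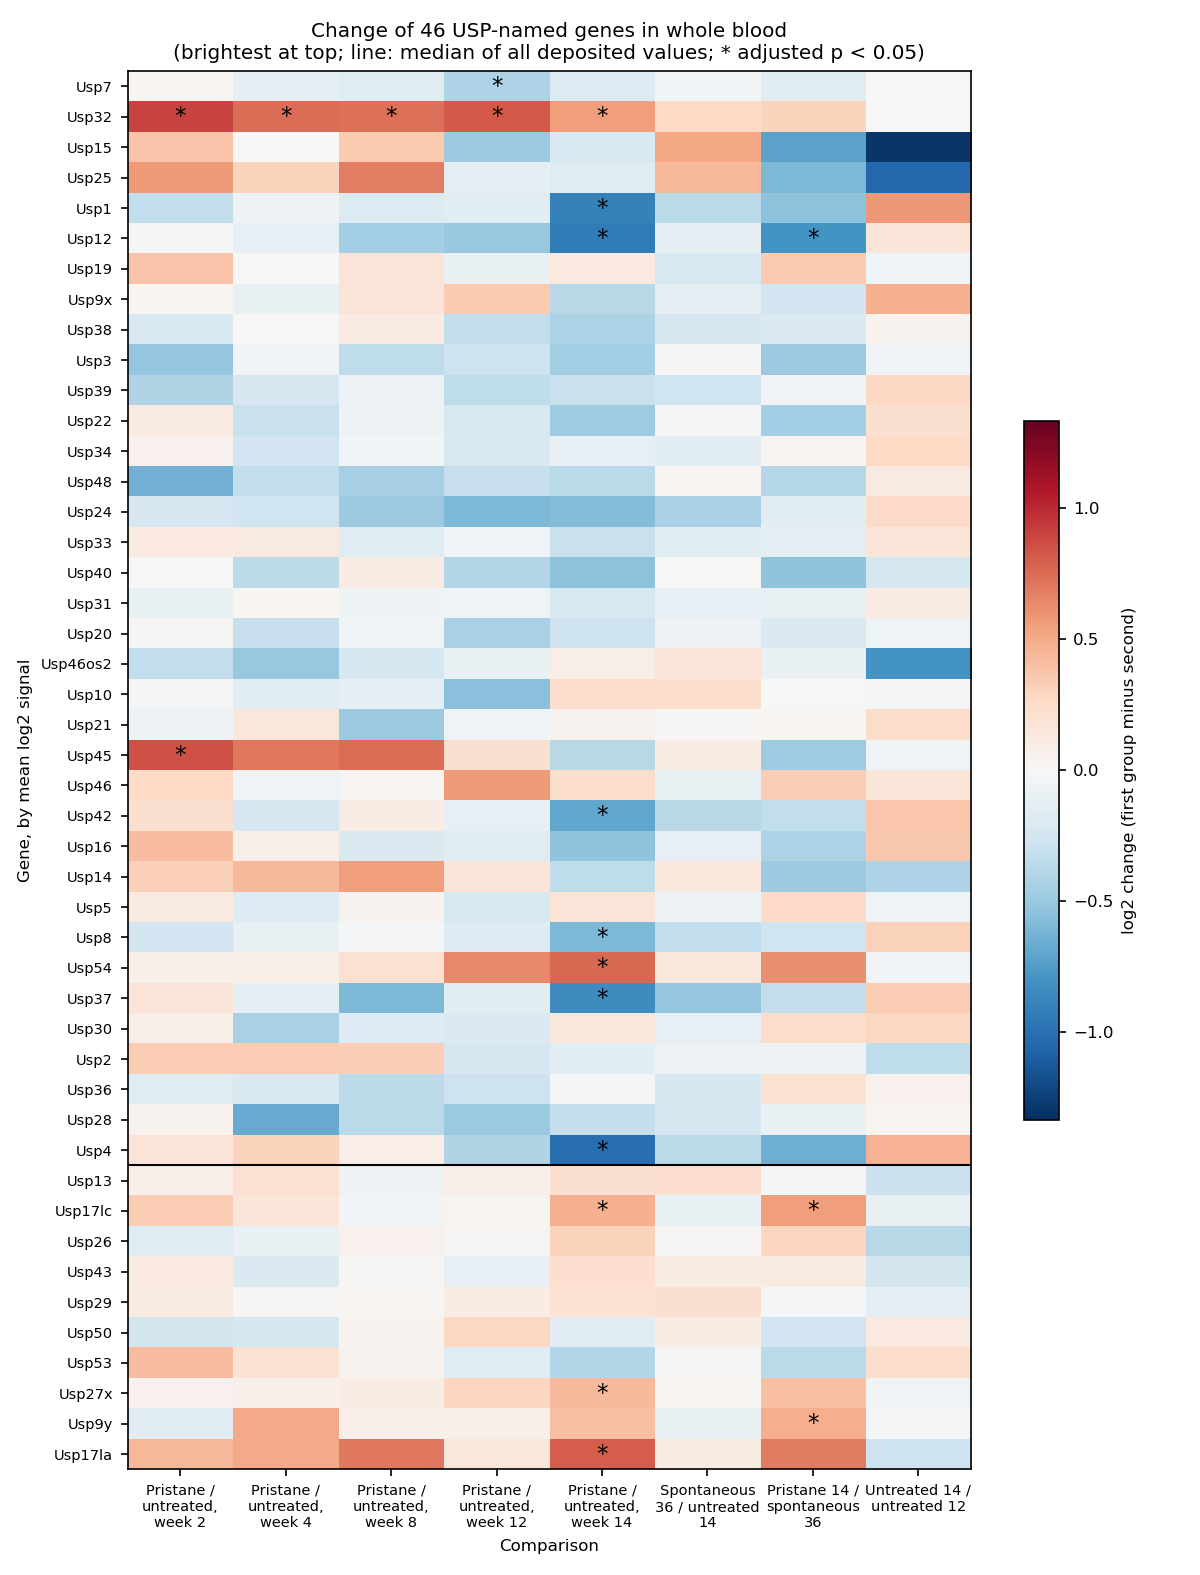
Log2 change of the 46 USP genes (rows, ordered by mean signal) in 8 comparisons (columns), with an asterisk where limma called the gene and a line at the median of all array values. Usp32 is the only row called in all 5 comparisons of pristane with untreated mice, and the week 14 column holds 5 called rises and 6 called falls.

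Usp32 was higher in pristane-treated mice at every week. It encodes a membrane-bound deubiquitinase of the Golgi and endosomes that acts on the Rab7 pathway. It was the only USP gene called in the same direction at 3 or more weeks, and 0.649% of all genes were called higher at all 5. At week 2 its log2 signal had a lowest value of 9.21, a median of 9.75 and a highest of 9.97 in pristane-treated mice, against 8.36, 8.91 and 9.19 in untreated mice. Each of the 8 treated mice lay above all 8 untreated mice. The change was 0.90 (0.63 to 1.17), or 1.86-fold, with a limma adjusted p of 3.24e-06.

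The log2 change of Usp32 lay between 0.73 and 0.82 at weeks 4, 8 and 12. At week 4 the treated mice ran from 9.12 to 9.88 with a median of 9.71, against 8.45 to 9.25 with a median of 8.95 in untreated mice (1.68-fold, adjusted p = 0.00016). A single treated mouse, at 9.12, overlapped the untreated range, and the log2 change was 0.82 without it and 0.75 with it. At week 8 the treated mice ran from 9.43 to 10.19, median 9.89, against 8.64 to 9.45, median 9.17, in untreated mice (1.66-fold, adjusted p = 0.000228), and 7 of the 8 treated mice lay above every untreated mouse. At week 12 the groups did not overlap, with 9.45 to 10.19 in treated and 8.64 to 9.42 in untreated mice (1.76-fold, adjusted p = 3.74e-05).

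Cell markers differed between the same groups at these weeks. Of 11 neutrophil markers, 11, 11, 10 and 11 were called higher in pristane-treated mice at weeks 2, 4, 8 and 12. Of 9 B cell markers, 2, 4, 1 and 3 were called lower, of 7 NK cell markers 3, 1, 3 and 0, and of 9 T cell markers 0, 1, 0 and 2. Of 13 interferon-induced genes, 10, 10, 9 and 11 were called higher, and of 10 red cell and 9 platelet markers 0 were called at any of these weeks. Monocyte markers had mean log2 signals of 7.31, 7.55, 7.64 and 8.00 in treated mice at weeks 2, 4, 8 and 12, against 6.96, 7.01, 7.83 and 7.41 in untreated mice. The part of these markers in the Usp32 rise at weeks 2 to 12 was not tested.

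At week 14 the Usp32 groups came closer. Pristane-treated mice had a lowest value of 9.05, a median of 9.50 and a highest of 10.18, against 8.45, 9.03 and 9.36 in untreated mice, and 4 of the 8 treated mice lay above all untreated ones. The change was 0.56 (0.28 to 0.83), or 1.47-fold, with an adjusted p of 0.00177. The difference between the effects at weeks 14 and 2 was -0.34 and was not called (adjusted p = 0.284). The week 14 call was lost with the mean of both Usp32 probe sets (0.28, adjusted p = 0.126), with the red cell score as a covariate (0.36, adjusted p = 0.0752) and with the neutrophil score as a covariate (0.32, adjusted p = 0.152). The other Usp32 probe set was dim, with a mean of 3.96, and was called at week 12 only (0.89, adjusted p = 0.0269).

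Mice with spontaneous disease had Usp32 signals of 8.96 to 9.51 with a median of 9.35, with a median between those of the treated and untreated mice of week 14. Their difference from untreated mice of week 14 was 0.26 (-0.01 to 0.54), and pristane-treated mice of week 14 lay 0.30 above them (adjusted p = 0.162), with neither called.

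Usp45, a deubiquitinase linked to the repair nuclease Ercc1, was the other rise at week 2. Its values were 6.42, 6.95 and 7.42 (lowest, median, highest) in pristane-treated mice, against 5.64, 6.0 and 6.63 in untreated mice. The groups overlapped, with 5 of the 8 treated mice above all untreated ones. The change was 0.85 (0.36 to 1.34), or 1.8-fold, with an adjusted p of 0.0342, and the call was lost on leaving out any of 7 single arrays of the 16. At weeks 4 and 8 the change was 0.70 (adjusted p = 0.132) and 0.75 (adjusted p = 0.0954), at week 12 it was 0.21, and at week 14 it was -0.37 (adjusted p = 0.272). A further Usp45 probe set was also called at week 2, with 1.09 (adjusted p = 0.0177), while the remaining one had -0.09.

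**Figure D2:**
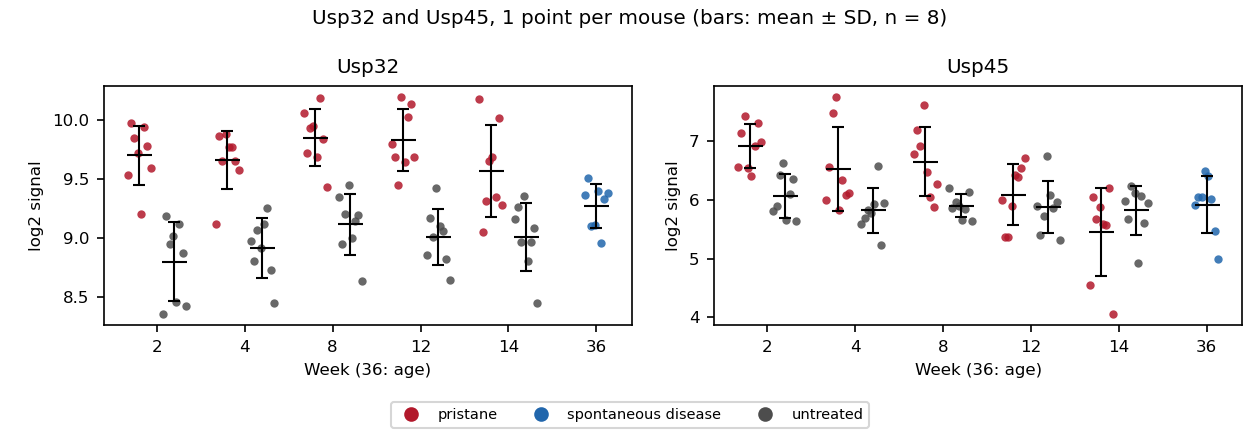
Log2 signal of Usp32 and Usp45 in each mouse (points) by week, for groups of 8 pristane-treated mice, mice with spontaneous disease (at 36) and untreated mice, with bars at the mean ± SD. The treated mean lies above the untreated mean for Usp32 at every week, without overlap of mice at weeks 2 and 12, and for Usp45 the separation at week 2 is gone at week 14.

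The 6 falls at week 14 came from DNA replication, signalling, chromatin and endosomal USPs. Among DNA repair and replication members, Usp1 and Usp37 fell. Usp1 removes ubiquitin from Fancd2 and from the replication clamp Pcna. Its values were 6.51, 7.73 and 7.85 in pristane-treated mice, against 8.06, 8.55 and 8.62 in untreated mice, so each treated mouse lay below every untreated mouse. The change was -0.90 (-1.30 to -0.51), 1.87-fold lower, with an adjusted p of 0.000416. The other Usp1 probe sets gave -0.58 (adjusted p = 0.00246) and -0.91 (adjusted p = 0.00139). Untreated mice of week 14 had a Usp1 mean 0.58 above those of week 12, a difference that was not called (adjusted p = 0.157).

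Usp37, which stabilises cyclin A and other factors at the start of S phase, had 3.89, 5.07 and 6.39 in pristane-treated mice, against 5.63, 5.96 and 6.23 in untreated mice. Of the treated mice, 7 lay below every untreated mouse and 1 lay above them all. The change was -0.84 (-1.20 to -0.49), 1.79-fold lower, with an adjusted p of 0.000281. At week 8 the treated mice, at 4.93 to 5.39, already lay below all untreated mice, at 5.45 to 5.99, but that change of -0.60 was not called (adjusted p = 0.054). The 6 measured members of this role list lay between -0.90 and -0.32 at week 14, with a median of -0.48.

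Among the 8 members of NF-kB, interferon and receptor signalling, Usp4 and Usp12 fell and 0 rose, with changes between -1.0 and 0.23 and a median of -0.21. Usp4, a close relative of Usp11 and Usp15, had 2.96, 3.81 and 5.00 in pristane-treated mice, against 4.01, 4.98 and 5.18 in untreated mice. The groups overlapped, with 4 treated mice below all untreated ones. The change was -1.0 (-1.54 to -0.46), 2.00-fold lower, with an adjusted p of 0.00431, from a probe set near the median signal, with a mean of 4.05.

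Usp12 works with the activator Wdr48, which it shares with Usp1 and Usp46. It had 5.72, 7.21 and 7.57 in pristane-treated mice, against 6.90, 8.04 and 8.56 in untreated mice. A single untreated mouse at 6.90 lay well below the other 7 untreated mice, and 3 treated mice lay below all untreated ones. The change was -0.93 (-1.35 to -0.50), 1.9-fold lower, with an adjusted p of 0.000737. The other Usp12 probe sets were dim, and gave -0.42 (adjusted p = 0.0901) and 0.10.

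Of the 8 histone and chromatin members, Usp42 fell and Usp27x rose, and the list ran between -0.70 and 0.43 with a median of -0.33. Usp42, which removes ubiquitin from p53 and histone H2B, had 4.61, 6.11 and 6.49 in pristane-treated mice, against 6.21, 6.48 and 6.80 in untreated mice (1.62-fold lower, adjusted p = 0.0387). Here 6 treated mice lay below every untreated mouse. The call was lost on leaving out any of 7 of the 16 arrays, and the other Usp42 probe set gave 0.022. Usp27x, an X-linked relative of Usp22, was dim, at 2.25, 2.52 and 3.26 in pristane-treated mice, against 1.86, 2.14 and 2.88 in untreated mice (1.35-fold higher, adjusted p = 0.0277). Its groups overlapped, the call was lost without any of 6 single arrays, and its other probe set gave -0.027. The Usp27x mean over all arrays, 2.48, was close to the 2.46 of Usp9y, whose gene female mice lack. A Usp27x signal above background was therefore not shown.

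Of the 8 endosome, ER and membrane traffic members, Usp8 fell and Usp32 rose, with a median of -0.21. Usp8 trims ubiquitin from receptors on early endosomes. It had 4.98, 5.39 and 6.38 in pristane-treated mice, against 5.80, 6.13 and 6.53 in untreated mice, with 5 treated mice below all untreated ones. The change was -0.59, 1.51-fold lower, with an adjusted p of 0.0326, and it was lost without any of 5 single arrays.

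**Figure D3:**
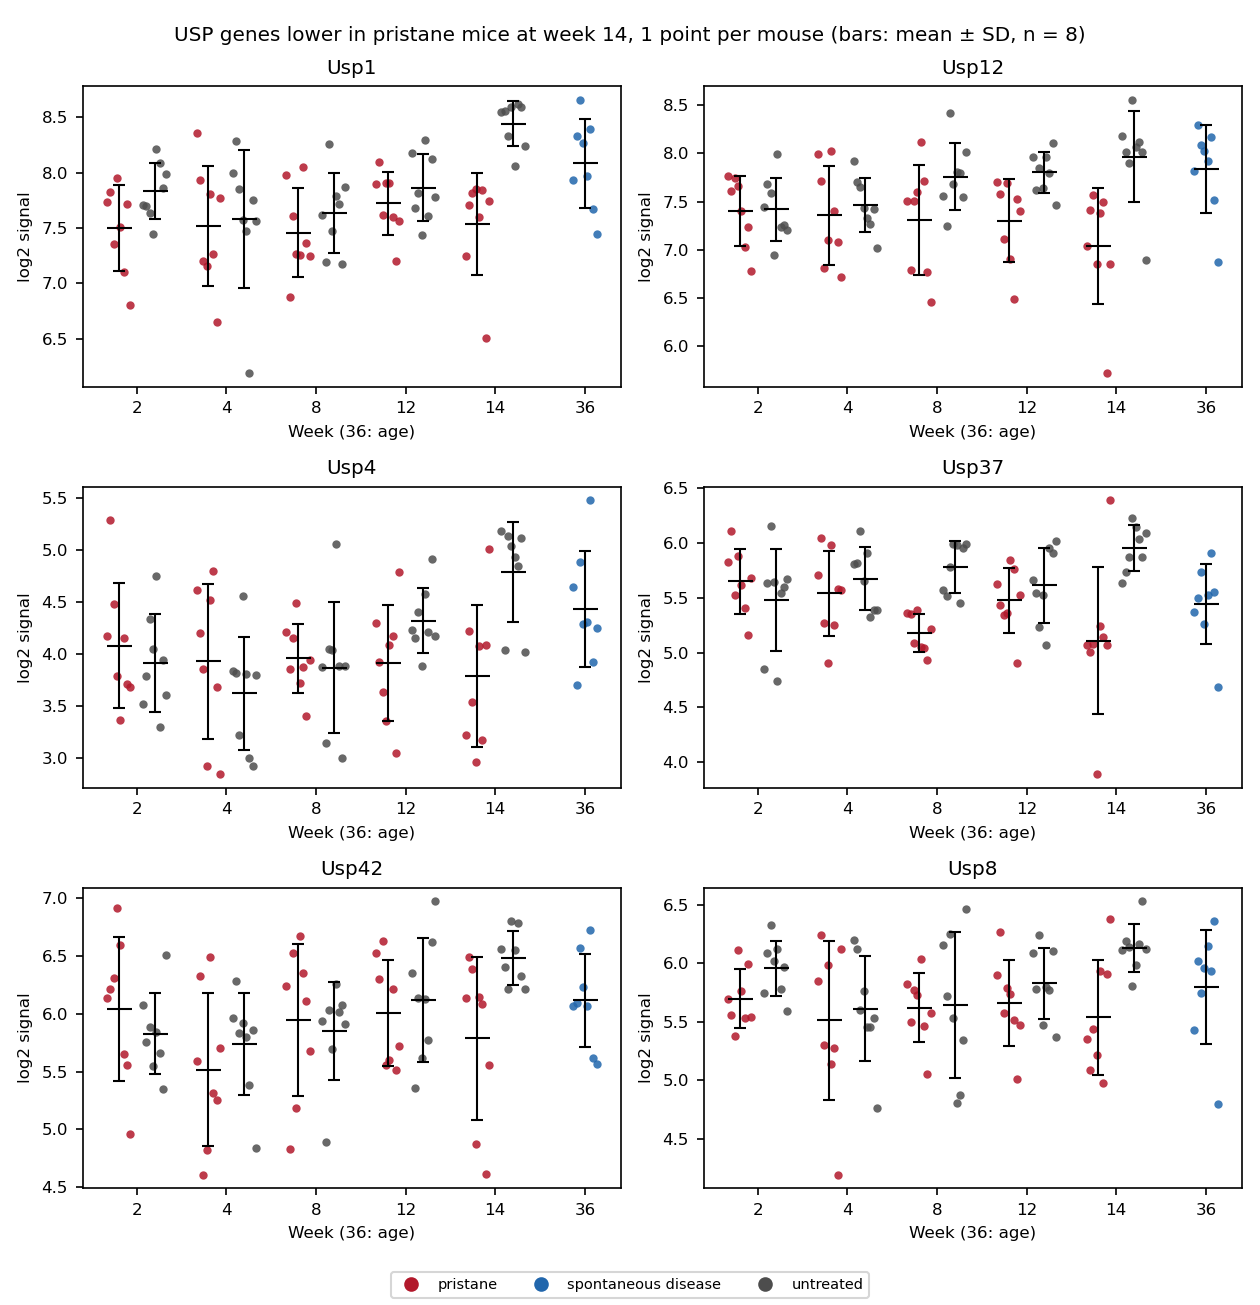
Log2 signal by week of the 6 USP genes called lower at week 14, in each pristane-treated mouse, mouse with spontaneous disease (at 36) and untreated mouse, with bars at the mean ± SD of each group of 8. At week 14 the pristane and untreated groups are separate for Usp1 and overlap for the other 5 genes, and 1 treated mouse lies above the untreated range for Usp37.

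Whether these falls were called depended on the untreated group used as the control, and the reason was not tested. Set against untreated mice of week 12 instead, pristane-treated mice of week 14 had changes of -0.33 for Usp1 (adjusted p = 0.356), -0.50 for Usp37 (adjusted p = 0.0588), -0.53 for Usp4, -0.33 for Usp42 and -0.29 for Usp8, none of them called, and of -0.76 for Usp12, which was called (adjusted p = 0.0103). With the red cell score as a covariate, Usp37 was called (-0.68, adjusted p = 0.00885), while Usp1 (-0.47, adjusted p = 0.0758), Usp12 (-0.46, adjusted p = 0.114), Usp4 (-0.69, adjusted p = 0.0984), Usp8 (-0.52) and Usp42 (-0.04) were not.

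The remaining rises at week 14 were Usp54, Usp17la and Usp17lc. Usp54 had 4.46, 6.51 and 7.07 in pristane-treated mice, against 4.67, 5.49 and 5.75 in untreated mice, with 6 treated mice above all untreated ones and 1 below them all. The change was 0.77 (0.31 to 1.23), 1.7-fold, with an adjusted p of 0.011. In its list of splicing factors and USPs with unusual active sites, 4 members ran between -0.54 and 0.77 with a median of -0.34, and Usp54 was the only one called.

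Usp17la and Usp17lc belong to a multigene family of near-identical copies, first described in mouse blood cells as deubiquitinases induced by cytokines, so their probe sets may share targets. Usp17la had 1.94, 2.51 and 4.74 in pristane-treated mice, against 1.68, 1.88 and 2.84 in untreated mice, and only 2 treated mice lay above all untreated ones. The change was 0.81, 1.75-fold, with an adjusted p of 0.0113, and without the first pristane replicate it was 0.53 (adjusted p = 0.0836). The Usp17la probe set was the dimmest of the members, with a mean of 2.35 over the 88 arrays. That is below the 2.46 of Usp9y, whose gene female mice lack, so a signal above background was not shown. Usp17lc had 3.32, 3.64 and 4.87 in pristane-treated mice, against 3.13, 3.26 and 3.99 in untreated mice, again with 2 treated mice above the untreated range. Its change of 0.47, 1.38-fold (adjusted p = 0.0365), was lost on leaving out any of 9 of the 16 arrays.

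The ubiquitin recycling and proteasome members, Usp5, Usp13 and Usp14, had 0 calls at week 14 and ran between -0.34 and 0.22. Usp5 takes apart free ubiquitin chains, and Usp14 trims chains on the proteasome. The 5 germ line and sex-linked members had 0 calls and ran between -0.15 and 0.40. Usp30, which removes ubiquitin from mitochondria, had a change of 0.14 and was not called.

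Bright members had mostly negative and dim members mostly positive changes at week 14, and the median of the bright members was lower than that of all bright genes. Of the 36 members brighter than the median of all values, 2 rose and 6 fell, with a median change of -0.30, while 14.2% of all brighter genes rose, 14.9% fell and their median was 0.01. Of the 10 dimmer members, 3 rose and 0 fell, with a median of 0.27, while 10.2% of all dimmer genes rose, 1.16% fell and their median was 0.18. Among all genes in 15 bins of mean signal, the median change was between 0.11 and 0.23 in the 8 dimmest bins and between -0.17 and 0.04 in the 7 brightest. The brighter genes include the bins around 4.26 and 4.71, with medians of 0.20 and 0.17. All bright members other than Usp4 had a mean signal of at least 5.01. The medians of -0.30 and 0.01 therefore come from genes of unlike signal. The interquartile range of the arrays had a mean of 3.26 in treated mice of week 14 and of 3.53 in their untreated controls, against 3.22 and 3.30 at week 12. With it as a covariate, 4 members were higher and 4 lower, and 3 of each were also called without it.

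**Figure D4:**
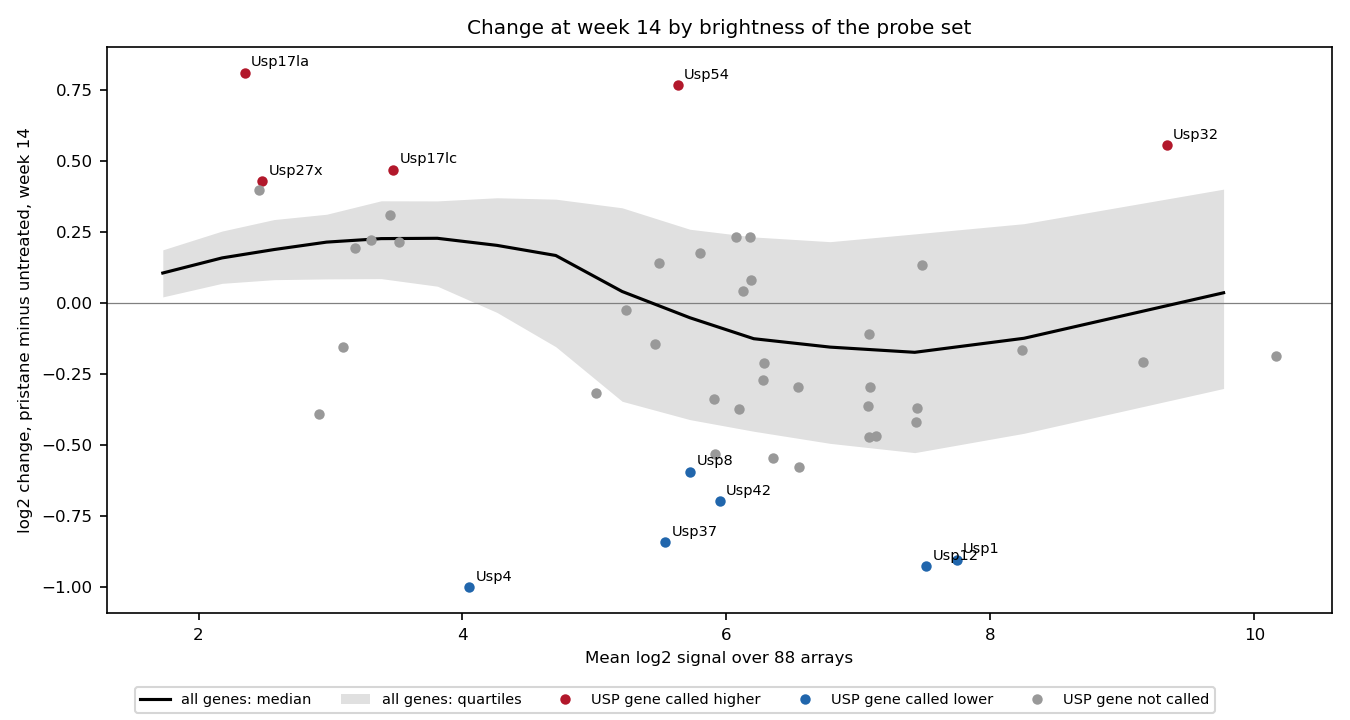
Log2 change at week 14 (pristane minus untreated) of the 46 USP genes (points) against their mean log2 signal, with the median and quartiles of all 17097 genes in 15 bins of mean signal. The median of all genes is above 0 in the dim bins and below 0 in most bright bins, and all USP genes called lower lie below the lower quartile.

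Cell markers also differed between pristane-treated and untreated mice at week 14. Neutrophil markers were called higher for 10 of 11 genes, platelet markers for 9 of 9 and red cell markers for 4 of 10, while 6 of 9 B cell and 5 of 9 T cell markers were called lower. Of 7 NK cell markers, 3 were called lower and 1 higher. Interferon-induced genes had a mean log2 signal of 8.48 in treated and 6.83 in untreated mice, and monocyte markers one of 8.03 and 8.09. The mean log2 signal of the neutrophil list was 9.32 ± 0.561 in treated mice, against 7.81 ± 0.269 in untreated ones (SD, n = 8 each). That of the red cell list was 9.30 ± 0.528 in treated mice, against 8.47 ± 0.436 in untreated ones, and that of the platelet list 10.9 ± 0.318 in treated mice, against 9.93 ± 0.270 in untreated ones. In untreated mice of weeks 2 to 12 the red cell list had means of 9.16 to 9.31, so the untreated mean of week 14 was the lowest. Treated mice of week 12 had a red cell mean of 9.29, close to that of week 14. The part of these markers in the USP changes was not tested, beyond fits with the red cell or the neutrophil score as a covariate. With the red cell score, 2 members were higher and 7 lower, of which Usp17la, Usp54 and Usp37 were also called without it. With the neutrophil score, 5 were higher and 8 lower, of which 2 and 5 were also called without it.

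Usp15 and Usp25 had the steepest slopes on the red cell score among the members, each by its brightest probe set. Usp15 regulates Smad and Rig-I signalling, and Usp25, a relative of Usp28, trims ubiquitin from Traf proteins. Within groups, Usp15 changed by 1.67 (1.52 to 1.82) and Usp25 by 1.55 (1.39 to 1.72) for each unit of the red cell score on the log2 scale, with limma adjusted p-values of 6.16e-33 and 8.34e-29 over the 88 arrays. With the mean of its 4 probe sets the Usp15 slope was 0.99, while Usp25 has a single probe set. Next came Usp14 with 0.96, Usp46os2 with 0.73, Usp40 with 0.61 and Usp45 with 0.52. In the other direction, Usp42 had a slope of -0.78, Usp16 of -0.68, Usp12 of -0.56 and Usp1 of -0.52.

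Such slopes were common. Of the 46 members, 12 had a called positive slope, against 35.5% of all genes, and 22 a called negative one, against 31.2% of all genes. The members' median slope was -0.21. On the neutrophil score 0 members had a called positive slope (4.27% of all genes) and 1, Usp26, a negative one of -0.28 (0.924% of all genes). On the interquartile range of the arrays, 22 were positive (35.1% of all genes) and 12 negative (44% of all genes). Usp42, Usp16, Usp12 and Usp1, with negative slopes on the red cell score, had positive ones of 1.63, 1.98, 1.66 and 1.31 on this range. With the range as a covariate fewer negative red cell slopes were called, while the red cell slopes of Usp15 and Usp25 were 1.83 and 1.66.

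At week 14 Usp15 had 6.94, 7.55 and 9.47 in pristane-treated mice, against 7.22, 7.87 and 9.39 in untreated mice, and Usp25 had 6.17, 7.10 and 7.91 in pristane-treated mice, against 6.66, 7.24 and 8.45 in untreated mice. The groups overlapped widely, and the changes of -0.21 and -0.17 were not called. With the red cell score as a covariate the same changes were -1.60 (adjusted p = 1.04e-12) for Usp15 and -1.46 (adjusted p = 4.85e-10) for Usp25. The untreated mice of week 14 had lower means of both genes than those of week 12, without a call. The difference was -1.30 for Usp15 (adjusted p = 0.0958), with 6 of the 8 mice below all untreated mice of week 12 (8.46, 9.65 and 10.20), and -1.05 for Usp25 (adjusted p = 0.159). Set against the untreated mice of week 12, pristane-treated mice of week 14 had called changes of -1.50 for Usp15 (adjusted p = 0.00391) and -1.21 for Usp25 (adjusted p = 0.0182).

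**Figure D5:**
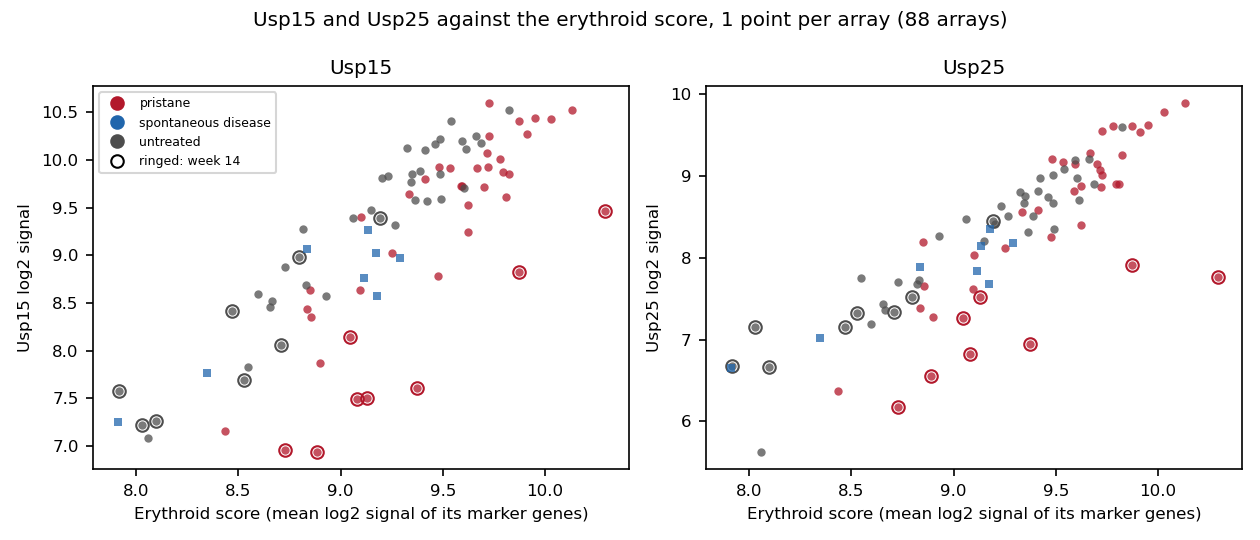
Log2 signal of Usp15 and Usp25 against the mean log2 signal of 10 red cell markers on each of the 88 arrays, coloured by treatment, with week 14 ringed. Both genes climb with the score, and most pristane-treated mice of week 14 lie below the other mice of similar score.

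Other Usp15 probe sets were higher in pristane-treated mice at week 2, by 1.29 (adjusted p = 0.0163) and 1.37 (adjusted p = 0.0118), which the brightest one was not. Probe sets also disagreed for Usp7. Its brightest probe set was lower at week 12, with 9.61, 9.93 and 10.10 in pristane-treated mice, against 10.12, 10.29 and 10.54 in untreated mice. The groups did not overlap, and the change was -0.42 (-0.64 to -0.19), 1.33-fold lower, with an adjusted p of 0.0248, a call lost without any of 4 single arrays. At week 14 that probe set gave -0.19 (adjusted p = 0.239), while 3 others of Usp7 gave -0.94 (adjusted p = 7.43e-06), -1.11 (adjusted p = 4.18e-08) and -1.12 (adjusted p = 3.14e-05). The remaining Usp7 probe sets gave -0.22 and -0.04. For Usp34, a large deubiquitinase of Wnt signalling, the brightest probe set gave -0.11 at week 14 and other probe sets -1.11 (adjusted p = 0.000969) and -1.20 (adjusted p = 0.000286).

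Week 14 could be set against the other weeks through the difference of the pristane effects. Against week 2, 0 members had a called higher effect (4.19% of all genes) and 3 a called lower one (2.67% of all genes), Usp37, Usp4 and Usp45. The differences were -1.01 (-1.52 to -0.51) for Usp37 (adjusted p = 0.00858), -1.17 (-1.93 to -0.41) for Usp4 (adjusted p = 0.0474) and -1.22 (-1.91 to -0.53) for Usp45 (adjusted p = 0.0215). The Usp4 call was lost on leaving out any of 22 of 32 arrays, and the Usp45 call on leaving out 1. Against week 12, 0 members differed in either direction, where 0.877% of all genes had a higher and 1.28% a lower effect. For Usp1 that difference was -0.76 (adjusted p = 0.136). A fall called at week 14 and not at week 12 was therefore not shown to differ between these weeks. Among all genes, 8.52% were called lower at week 14 and at no earlier week.

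Between mice with spontaneous disease and untreated mice of week 14, limma called 0 USP genes and 0% of all genes in either direction. At an unadjusted p under 0.05, 1 member and 594 of all genes passed. The members' median difference was -0.08, and that of all genes 0.02. Pristane-treated mice of week 14, which both comparisons of that week share, had 3 members called against the spontaneous group, 2 higher (5.59% of all genes) and 1 lower (4.42% of all genes).

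The lower one was Usp12, at 5.72, 7.21 and 7.57 in pristane-treated mice, against 6.87, 7.97 and 8.30 in mice with spontaneous disease. The groups overlapped, with 3 treated mice below all of the others, and the change was -0.80 (-1.22 to -0.38), 1.74-fold lower (adjusted p = 0.00812), or -0.61 without pristane replicate 7 (adjusted p = 0.0517). Usp17lc was 1.47-fold higher (adjusted p = 0.0222), with spontaneous values of 2.87, 3.12 and 4.15. The Usp9y probe set, whose Y-linked gene female mice lack, had 2.40, 2.79 and 3.50 in pristane-treated mice, against 2.06, 2.34 and 2.59 in mice with spontaneous disease. It was called (adjusted p = 0.0493) on a signal that is background, so no fold is given. Both of these came from dim probe sets, and their calls were lost without any of 3 arrays for Usp17lc and any of 11 arrays for Usp9y, of 16.

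Several USP genes moved among untreated mice alone. An F test over the 5 untreated groups called 6 members, against 11.8% of all genes. Usp46os2 group means ran from 5.52 to 6.79 (adjusted p = 0.000515), Usp15 means from 8.07 to 9.68 (adjusted p = 0.00963), Usp1 means from 7.58 to 8.44 (adjusted p = 0.0106), and Usp4 means from 3.62 to 4.78 (adjusted p = 0.0119). Usp26 means ran from 3.08 to 3.67 (adjusted p = 0.0288) and Usp25 means from 7.29 to 8.56 (adjusted p = 0.0496). Untreated mice of week 14 had the lowest mean for Usp46os2, Usp15 and Usp25 and the highest for Usp1 and Usp4. With the interquartile range of the arrays as a covariate 0 of these calls were kept. Directly between untreated mice of weeks 14 and 12, 0 members were called (0.0351% of all genes in each direction), and 7 members and 2911 of all genes had an unadjusted p under 0.05.

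Outside the USP family, 34 deubiquitinases of the other classes were measured, from 42 listed symbols that include older names of some of the same genes. Of these 34, 5 were higher and 4 lower at week 14, with a median change of -0.06. Among all genes 12.7% were higher and 9.72% lower, with a median of 0.12. Among the OTU proteases, Otub2 was higher by 1.29 (adjusted p = 0.000654), and Tnfaip3, the NF-kB inhibitor A20, fell by 0.76. Among the UCH proteases, the tumour suppressor Bap1 was higher by 0.92 and Uchl3 fell by 1.26. Mindy1, which cuts long chains, was higher by 1.33 (adjusted p = 6.88e-07), and Zup1 fell by 0.61. The 7 JAMM metalloproteases, which include subunits of the proteasome and the signalosome, had 0 calls and ran between -0.37 and 0.13.

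Of 15 measured partner proteins of USPs, 1 was higher and 4 were lower, against 12.7% and 9.72% of all genes in these directions, with a median of -0.32. The falls were G3bp1, the partner of Usp10, with -0.97, Atxn7, which anchors Usp22 in the SAGA complex, with -0.89, Trim27 with -0.86 and Gmps, a partner of Usp7, with -0.83. Of the ubiquitin-activating enzymes, Uba6 fell by 0.85, and Uba7, which activates the ubiquitin-like Isg15, was higher by 1.05. Usp18, which removes Isg15 and restrains the interferon receptor, was left out of the members and was higher by 3.87, 2.91, 2.79, 2.82 and 2.00 at weeks 2, 4, 8, 12 and 14. At week 14 its mean was 7.64 in treated mice, against 5.64 in untreated ones (adjusted p = 1.52e-06). Cyld, which has the USP fold without the name, had -0.42 at week 14 and was not called.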

How the data were processed

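RNA came from blood that had been frozen whole. Extraction used Trizol, followed by a clean-up column and removal of DNA. Biotin-labelled material was hybridised to Affymetrix HT-MG-430 PM plates, with 1 array for each blood sample. The authors deposited log2 intensities, summarised for each probe set by robust multi-array average (RMA) normalization. The labels give no plate, scan date or batch. From the 45141 probe sets the 104 controls were removed, and dim probe sets were kept. The probe annotation paired 28898 probe sets with 1 gene and 551 with several, and did not list 15588. Of the 46 members, 45 matched the RefSeq gene reference by Entrez ID.

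Comparisons were fitted with limma 3.58.1 in R 4.3.3 (lmFit, eBayes, 77 residual and 5.81 prior degrees of freedom), with Benjamini-Hochberg adjustment. The code was tested on simulated data. Marker scores are mean log2 signals of a list. The members named were the 10 largest called rises and falls at week 14, the 5 largest called elsewhere, those called at 3 or more weeks, and the 5 brightest and 5 dimmest. Any others, and single probe sets, were named after their values were seen, and the slopes on scores were also added then. The members and lists were chosen with earlier results of these data known. Alternatives were quantile normalization, score covariates, other probe set rules, fits of only the compared groups, a replicate block, another control week and leaving out each array.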

Additional observations from a re-analysis of the deposited data

Results flagged for a closer look

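In groups of 8 mice, a single mouse stood apart from the others in 15 of 209 pairs of a named gene and a group, by the gap to its nearest neighbour relative to the whole range (Dixon's criterion). Chance flags about 1 in 20 groups. At week 14 in pristane-treated mice, replicate 7 was lowest for Usp1 (6.51) and for Usp12 (5.72), and replicate 2 was lowest for Usp46os2 (4.52) and highest for Usp7 (10.79). In untreated mice of week 14, replicate 8 was lowest for Usp12 (6.90) and highest for Usp17lc (3.99), and replicate 4 was highest for Usp17la (2.84). In mice with spontaneous disease, replicate 5 was highest for Usp17la (2.52) and replicate 8 for Usp17lc (4.15). At earlier weeks in pristane-treated mice, Usp32 was lowest in replicate 1 of week 4 (9.12), and at week 8 Usp53 was highest in replicate 1 (3.63) and Usp9y in replicate 8 (3.58). In untreated mice, Usp1 was lowest in replicate 6 of week 4 (6.19), Usp42 lowest in replicate 2 of week 8 (4.89) and Usp53 highest in replicate 1 of week 12 (3.63).

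The pristane effect at week 14 differed from that at week 2 by limma's test of the difference for Usp37 (-1.01), Usp4 (-1.17) and Usp45 (-1.22).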

How the results depend on the processing

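At week 14, Usp12 and Usp37 were called in 8 of 9 alternatives, Usp1 and Usp54 in 7 of 9, Usp32 and Usp4 in 6 of 9, Usp42 and Usp8 in 4 of 9, Usp17la in 5 of 8, and Usp17lc and Usp27x in 2 of 8. No consistent pairing of pristane-treated with untreated mice by replicate number was seen within a week, which does not exclude one. Pairing across weeks was not tested. Correlations of same-numbered mice lay between -0.24 and 0.55, and at most 3 of 8 mice a week correlated best with their own number. With the replicate block the rises at week 14 were 6 and the falls 7, the rises at week 4 were 2, the falls at week 2 were 1, and 4 members were higher at week 14 than in spontaneous disease.

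Quantile normalization gave 1 fall at week 2, 3 rises at week 14, and 2 members lower in pristane at week 14 than in spontaneous disease. The interquartile range as a covariate gave 2 falls at week 2, 1 fall at week 8, 4 members lower than in spontaneous disease, 1 higher effect at week 14 than at week 12, 0 members differing among the untreated groups and 5 negative red cell slopes. The mean of all probe sets of a gene gave 2, 3 and 0 falls at weeks 2, 8 and 12, and 3 rises and 10 falls at week 14. It gave 4 members higher and 3 lower than in spontaneous disease, and a lower effect at week 14 than at week 12 for 2 and than at week 2 for 5. Without dim probe sets there was 1 fall each at weeks 2 and 8, 2 rises at week 14, 0 higher and 2 lower than in spontaneous disease, and 7 positive red cell slopes. With only the compared groups in the fit there was 1 fall at week 8, 1 rise at week 14, 0 higher and 0 lower than in spontaneous disease, and between untreated weeks 14 and 12, 1 higher and 2 lower. With the untreated week 12 mice taken as the control there were 2 rises at week 14, as with the red cell score as a covariate. The week 14 change turned to 0.10 for Usp12, -0.027 for Usp27x and 0.022 for Usp42 in another probe set of the gene. The cause was not tested.

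Leaving out 1 array at a time gave 3 to 6 rises and 5 to 8 falls at week 14, 0 to 4 members higher and 0 to 3 lower than in spontaneous disease, 0 to 1 with a lower effect at week 14 than at week 12, and 2 to 5 than at week 2. It gave 4 to 8 members differing among untreated groups, 0 to 1 lower between untreated weeks 14 and 12, 1 to 2 rises at weeks 2 and 4, and 0 to 1 falls at weeks 2, 4, 8 and 12. The lowest counts at week 14 came without pristane replicate 4, and against spontaneous disease without spontaneous replicate 6 (higher) or pristane replicate 7 (lower). The number of arrays limits all counts, and 10 of the 46 members were dim.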
